A study of Mus musculus with 70 samples.

Results

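The 7 genes Trh, Trhr, Thra, Thrb, Dio2, Crym and Rax were followed through all 24 groups of a mouse brain expression atlas. They were chosen by name, as genes of thyrotropin-releasing hormone, thyroid hormone action and tanycytes, and were found in the gene-level table as 7 of 34677 genes. The atlas holds 70 sequencing libraries, with brain tissue from C57BL/6NTac mice and stem cells derived from C57BL/6 mice (C57BL/6 in the labels throughout). No engineered allele and no treatment of the animals is named. The stem cells were cultured before collection with leukemia inhibitory factor and added inhibitors. Their RNA was extracted with another kit than that of the tissue. In comparisons with the stem cells, cell type, culture and extraction cannot be told apart. Adult tissue at P56 gave 57 libraries from 18 regions of male mice, embryonic tissue at E14.5 gave 9 libraries from 4 regions, and 2 lines of mouse embryonic stem cells (mESC) gave 4 libraries. A group had 2 to 4 libraries, apart from the embryonic forebrain with 1.

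The adult regions were 5 hypothalamic nuclei, 3 cortical areas, 5 cerebellar regions, 3 hindbrain nuclei and 2 further regions. The hypothalamic nuclei were the arcuate (ARH), ventromedial (VMH), dorsomedial (DMH) and paraventricular (PVH) nuclei and the lateral hypothalamic area (LHA). The cortex was sampled at the frontal pole (FRP), the anterior cingulate area (ACA) and the entorhinal area (ENT). The cerebellum was sampled at central lobule II (CENT2), the culmen (CUL4-5), the uvula (UVU), the flocculus (FL) and the cerebellar nuclei (CBN). The hindbrain nuclei were the parabrachial nucleus (PB), the nucleus of the solitary tract (NTS) and the dorsal-vagal complex (DVC), and the last 2 regions were the nucleus accumbens (ACB) and the ventral tegmental area (VTA). The embryonic regions were the terminal and peduncular hypothalamus (THy/PHy), the forebrain (F), the midbrain (M) and the hindbrain (H), and the mESC lines B6-1 and B6-2 are 1 clone each. Brain tissue was taken as punches of frozen sections and pooled from several animals per library, with 1 ACB library from a single mouse, so that replicates are pools and not animals. Punches of different regions came from the same small set of adult mice, so that regions share animals and are not independent of each other.

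Thyrotropin-releasing hormone (TRH) is a short peptide cut from the precursor that Trh encodes. Neurons of the paraventricular nucleus release it towards the pituitary, where it acts on the receptor encoded by Trhr and drives the secretion of thyrotropin and, through it, of thyroid hormone, while other TRH neurons and TRH receptors serve as a signalling system within the brain. Thyroxine that enters the brain is converted to the active hormone T3 by the type 2 deiodinase (Dio2), best known in astrocytes and in tanycytes, and both hormones are inactivated by the type 3 deiodinase (Dio3). T3 binds the nuclear receptors encoded by Thra and Thrb, and mu-crystallin (Crym) binds T3 in the cytosol. Tanycytes are the elongated ependymal cells that line the floor of the third ventricle, and the homeobox gene Rax marks them and the early hypothalamus.

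The coding sequence of Trh, 771 bases with the stop codon, holds the unit of TRH 5 times. The copies are shown because each Trh transcript carries all 5, while a read assigned to Trh can come from any part of the transcript. Capitals mark the 12 bases that encode the TRH residues and the glycine used for the terminal amide, and the 6 lower-case bases on each side encode the pairs of basic residues at which the precursor is cut. Positions were counted from the first base of the start codon, in the transcript Trh-201 of GRCm38.
copy 1, bases 229 to 240: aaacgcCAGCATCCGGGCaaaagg
copy 2, bases 325 to 336: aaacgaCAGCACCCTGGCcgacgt
copy 3, bases 460 to 471: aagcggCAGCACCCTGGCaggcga
copy 4, bases 514 to 525: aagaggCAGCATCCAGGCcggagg
copy 5, bases 607 to 618: aaacgtCAGCATCCTGGCaaaagg
The histidine and proline codons varied between the copies, while the first and last codon of the unit were the same in all 5.

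Trh lies on the minus strand of chromosome 6 (92242061 to 92244650, GRCm38). The 250 bases before its start (RefSeq promoter table, GRCm38.p6, chr6:92244651-92244900, minus strand) are shown because thyroid hormone is known to repress this gene, and capitals mark TGACCTCA, a motif known from this promoter in which a half-site for thyroid hormone receptors overlaps a sequence like the cAMP response element.
Trh upstream: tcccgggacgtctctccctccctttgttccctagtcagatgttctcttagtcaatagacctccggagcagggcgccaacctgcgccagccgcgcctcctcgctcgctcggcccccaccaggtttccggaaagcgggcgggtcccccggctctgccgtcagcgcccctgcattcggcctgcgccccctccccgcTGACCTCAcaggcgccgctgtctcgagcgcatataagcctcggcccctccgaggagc
The motif was found once, at positions -57 to -50 from the start. Searched on both strands, it was present in 636 of 32851 upstream windows of the same length, or 1.94%. A match describes the letters of the window and not the binding of a receptor. Windows for Thrb and Dio2 are also in the table, and Trhr, Thra, Crym and Rax were not matched.

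Thra gives rise to receptors that differ in their ends, and this bears on every Thra value below. The sequences around the point where the coding parts separate are shown, with the last 30 shared bases in lower case and the first 30 bases of each own end in capitals.
Thra-202: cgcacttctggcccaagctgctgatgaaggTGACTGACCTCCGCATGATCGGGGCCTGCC
Thra-201: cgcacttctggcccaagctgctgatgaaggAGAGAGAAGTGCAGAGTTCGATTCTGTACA
Both read 1111 coding bases in common and separate after base 98764406 of chromosome 11 (plus strand, GRCm38). Thra-202 reads on in the same exon (98764407 to 98764436 shown) to a coding sequence of 1233 bases and encodes the T3-binding receptor known as TRα1. Thra-201 is spliced to a further exon (98768158 to 98768187 shown) and a coding sequence of 1479 bases, and encodes the variant known as TRα2, which does not bind T3.

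The levels below are TPM, the unit of transcript abundance corrected for length and scaled to depth in the deposited gene table, so that levels of different genes can be compared. Estimated counts per library came to 13409041 to 20647884 in adult, 9074581 to 22229582 in embryonic and 12985081 to 18501667 in mESC libraries. VTA replicate 1 and H replicate 1 stood apart, with mitochondrial transcripts at 39.6% and 22.6% of their TPM, where the median library had 7.49%. Punches carried their neighbours' markers. VMH punches held Nr5a1, the defining VMH factor, at a mean of 33.6 TPM, but also Hcrt at 799 TPM and Pmch at 3525 TPM, which are defining genes of LHA neurons, and Oxt at 326 TPM. Sim1, a factor of PVH neurons, was no higher in PVH (2.13 and 5.79 TPM) than in DMH (2.98 to 4.90 TPM), and Nr5a1 reached 16.8 to 19.7 TPM in ARH. In such bulk tissue, fewer cells of a type and less RNA per cell cannot be told apart.

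Log2 fold changes (first group minus second) compare means of group means on the log scale, from edgeR's quasi-likelihood test on estimated counts of 19960 genes in all 70 libraries. A gene was called at a Benjamini-Hochberg adjusted p under 0.05 over all genes tested and an absolute log2 fold change above 1. On this scale a region near 0 weighs as much as a region of high level, so that a fold change can differ from the ratio of mean TPM. 2 neighbours in an order of levels were said to differ beyond their spread where their libraries did not overlap and their means differed by more than the larger SD.

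Trh was the most regional of the ligand and receptor genes. It reached 281 and 229 TPM in the 2 VMH libraries and 87.0 and 169 TPM in the 2 PVH libraries. The 4 DMH libraries read 62.8, 18.3, 59.0 and 54.8 TPM, the 3 ARH libraries 32.1, 43.9 and 52.2 TPM and the 3 LHA libraries 40.6, 24.9 and 26.1 TPM. Every adult hypothalamic library therefore lay above every other adult library, of which the highest was FRP replicate 3 at 15.1 TPM. VMH differed beyond the spread from PVH, and PVH from DMH, whereas DMH, ARH, B6-1, LHA and B6-2 followed each other with no such step between neighbours.

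Outside the hypothalamus, Trh was found at 3.23, 11.1 and 15.1 TPM in FRP, at 7.92, 7.56 and 5.53 TPM in ACB and at 8.38, 3.53 and 4.47 TPM in PB. ENT held 1.81 to 5.98 TPM and VTA 0.522 to 2.55 TPM, the lowest value being that of VTA replicate 1. The cerebellum held 0.0 to 1.79 TPM, and the 3 UVU libraries held no Trh count. Of the summed means of the 18 adult regions, 94.25% lay in the 5 hypothalamic nuclei.

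The hypothalamus exceeded the other adult regions with a mean of 101 against 2.37 TPM and a fitted log2 fold change of 6.53 (SE 0.18, adjusted p = 4.39e-33). Since UVU had 0 counts, the size of this fold depends on the prior count of the fit and is no bound, and the ratio of the mean TPM was 42.6. The difference also held with the 18 regional means as units (limma, adjusted p = 0.000337). The cerebellum was lower (log2 fold change -6.25, SE 0.36, adjusted p = 3.43e-21), with 0.24 TPM against 41.1 TPM elsewhere. ACB was called higher on the log scale (1.51, SE 0.34, adjusted p = 0.000259), although its mean of 7.00 TPM lay under the 31.1 TPM of all other regions, which the hypothalamus dominates, and limma on log2(TPM + 0.5) did not call it (0.73, adjusted p = 0.08). For the hindbrain nuclei the fitted value of -1.02 had an adjusted p of 1, a test that the empty UVU group leaves without content, while DESeq2 gave -1.05 (adjusted p = 0.00051).

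Among the hypothalamic nuclei, Trh was higher in VMH (255 TPM ± 36.6, SD, n = 2, against a mean of 62.5 TPM in the other nuclei; log2 fold change 2.22, SE 0.30, adjusted p = 2.1e-06). The VMH punches with the highest Trh also held Oxt and, of the lateral hypothalamus, Hcrt and Pmch. Trh stood at 30.6 TPM ± 8.72 (SD, n = 3) in LHA punches and at 128 TPM ± 57.8 (SD, n = 2) in PVH punches. The part of neighbouring tissue in the VMH level was not tested. LHA was lower than the other nuclei (-1.45, SE 0.34, adjusted p = 0.00113). PVH, the nucleus of the TRH neurons that drive the pituitary, was called higher with a narrow margin (128 TPM ± 57.8, SD, n = 2; 1.03, SE 0.33, adjusted p = 0.0468). Without PVH replicate 2 the value fell to 0.54 (adjusted p = 0.735), and DESeq2 gave an adjusted p of 0.197. ARH was called lower (-1.05, SE 0.33, adjusted p = 0.0139), and this call was lost without ARH replicate 1 (-0.85, adjusted p = 0.124) and in limma on log2(TPM + 0.5) (-0.92, adjusted p = 0.0749). PVH punches also had the highest sum of 6 thalamic marker genes, at 1209 to 1307 TPM against 321 to 1106 TPM in the other nuclei. Of the 6, 5 were called higher in PVH, where 1.45% of all genes were. Calb2 (581 TPM in PVH) and Slc17a6 (188 TPM) weigh heavily in this sum and are not particular to thalamus. Calb2 also stood at 518 TPM in CUL4-5 and Slc17a6 at 166 TPM in PB. The part of thalamic tissue in the Trh level was not tested.

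Trhr, which encodes the TRH receptor, followed another order. ACB held the highest level, with 11.2, 16.1 and 15.02 TPM in its 3 libraries, and all 3 lay above every other library. ENT followed at 8.65, 7.34 and 7.52 TPM. The 5 hypothalamic nuclei stood close together, with 3.87 to 9.05 TPM over 14 libraries and no called difference between any nucleus and the others. PB held 5.91 to 6.75 TPM, DVC 3.36 to 7.37 TPM and NTS 1.497 to 4.265 TPM, while the cerebellum held 0.0925 to 1.77 TPM.

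Trhr was higher in the hypothalamus than elsewhere (6.065 against 3.46 TPM; log2 fold change 1.59, SE 0.15, adjusted p = 2.32e-13), but with regions as units the call was lost (adjusted p = 0.195). It was higher in ACB (14.1 TPM ± 2.59, SD, n = 3, against 3.60 TPM; 2.61, SE 0.22, adjusted p = 1.63e-14) and lower in the cerebellum (0.595 against 5.57 TPM; -3.35, SE 0.19, adjusted p = 2.38e-22), and the cerebellar difference also held over regional means (adjusted p = 0.000172). VTA sat at the fold limit (1.00, SE 0.27, adjusted p = 0.00199) although its mean of 2.97 TPM lay below the 4.26 TPM of the other regions. Without VTA replicate 1, the library rich in mitochondrial transcripts, the VTA value was 0.56 (adjusted p = 0.208), and limma on log2(TPM + 0.5) gave 0.07 (adjusted p = 0.823). Ligand and receptor had their highest levels in different regions, although over the 18 adult regional means, which share batches, their r on the log scale was 0.664. VMH, with the highest Trh, held Trhr at 7.32 TPM ± 2.44 (SD, n = 2), and ACB, with the highest Trhr, held Trh at 7.00 TPM ± 1.29 (SD, n = 3).

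**Figure D1:**
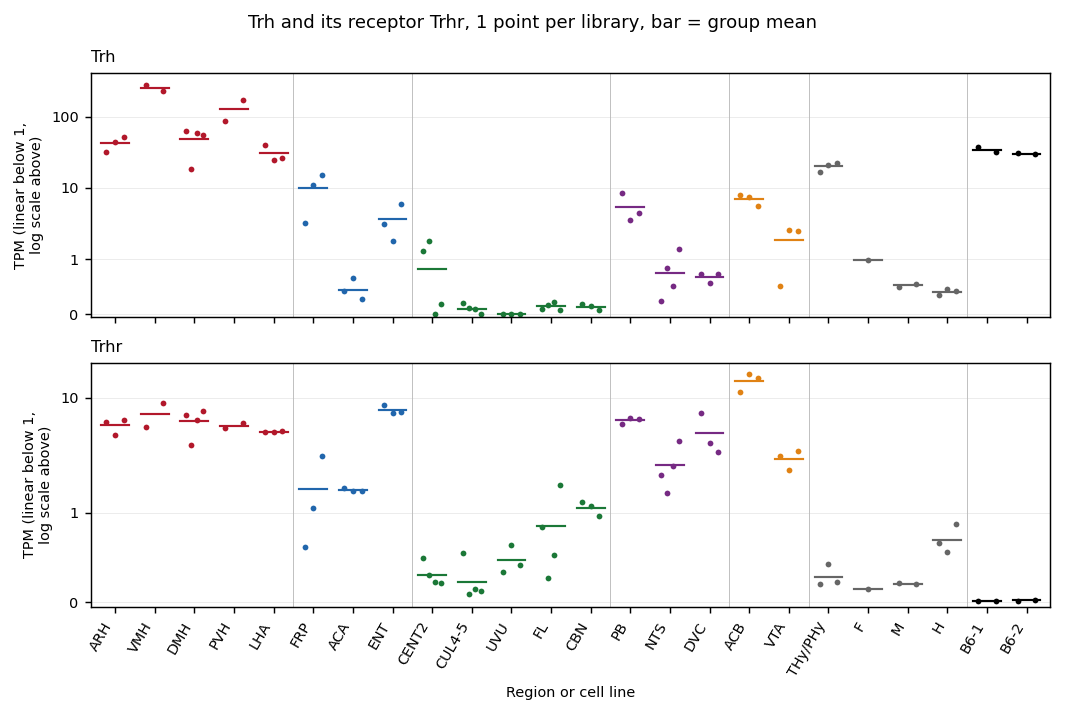
Gene TPM of Trh (top) and Trhr (bottom) in each of the 70 libraries by group, on an axis that is linear below 1 TPM and logarithmic above; points are libraries, bars are group means and vertical lines part the hypothalamus, cortex, cerebellum, hindbrain nuclei, ACB and VTA, the embryo and mESC. The 14 adult hypothalamic libraries hold Trh at 18.3 to 281 TPM, above all other adult libraries, while Trhr is highest in ACB (11.2 to 16.1 TPM).

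The enzymes that make and destroy TRH were spread more evenly than the peptide. Of 7 genes listed for TRH processing and inactivation, the receptor gene Trhr2 among them, 2 were higher in the hypothalamus and none was lower. Of all genes, 5.88% were called higher there and 2.92% lower. They were Pam, which forms the terminal amide (379 against 201.4 TPM; log2 fold change 1.28, SE 0.06, adjusted p = 2.98e-23), and Qpct, which forms the cyclic first residue (31.8 against 11.5 TPM; 1.70, SE 0.11, adjusted p = 5.74e-19). The median log2 fold change of the 7 was 0.86, against -0.03 over all genes. In the cerebellum 4 of the 7 were lower, Qpct at -2.23 and Trhr2, a further receptor gene, at -3.17 among them. Among all genes tested, 8.24% were called lower in the cerebellum. Trhde, the enzyme that degrades TRH outside cells, was called in none of the regional comparisons but VTA, where it was lower (2.22 against 9.41 TPM; -1.29, SE 0.16, adjusted p = 5.56e-09).

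Thra was abundant in every brain library. Its adult means ran from 238 TPM ± 24.5 (SD, n = 3) in CBN to 779 TPM ± 93.9 (SD, n = 3) in ENT, a ratio of 3.28, the narrowest of the members. ENT read 672, 820 and 845 TPM and ACB 657, 601 and 685 TPM, and these 2 regions did not differ beyond their spread. The hypothalamic nuclei held 374 to 480 TPM. VTA replicate 1 read 110 TPM against 356 and 288 TPM in the other VTA libraries. No regional comparison called Thra, since its log2 fold changes stayed within 1, with 0.82 in cortex (SE 0.06, adjusted p = 9.18e-19), 0.66 in ACB (adjusted p = 1.71e-08) and -0.44 in the cerebellum (adjusted p = 7.48e-12). In the hypothalamus the value was 0.02 (SE 0.05, adjusted p = 0.847).

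Thrb was lower than Thra throughout and more regional. ACA held 57.1, 62.3 and 66.8 TPM, FRP 48.3, 52.1 and 45.5 TPM, ACB 36.2, 31.8 and 38.7 TPM and ENT 39.5, 30.7 and 34.2 TPM. Among the hypothalamic nuclei ARH stood out, with 32.2, 30.2 and 42.2 TPM against 10.3 to 20.9 TPM in the other 11 libraries. The cerebellum held 4.59 to 10.98 TPM. ACA differed beyond the spread from FRP, FRP from ACB, and ENT from VMH, while ACB, ARH and ENT followed each other without such a step.

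Thrb was higher in the cortex (48.5 against 14.1 TPM; log2 fold change 2.13, SE 0.07, adjusted p = 4.62e-32), also over regional means (limma, adjusted p = 0.00626), and in ACB (1.47, SE 0.11, adjusted p = 2.1e-16). It was lower in the cerebellum (7.19 against 24.7 TPM; -1.53, SE 0.07, adjusted p = 8.22e-26). ARH exceeded the other hypothalamic nuclei (34.8 TPM ± 6.41, SD, n = 3, against 15.9 TPM; 1.05, SE 0.14, adjusted p = 2.22e-08), and without ARH replicate 3 this value came to 0.99 (adjusted p = 3.8e-06), just under the fold limit. For the hypothalamus as a whole the difference was 0.24 (SE 0.07, adjusted p = 0.00286), with 19.7 against 19.8 TPM.

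Summed over all transcripts, the message of the 2 receptor genes was therefore mostly Thra. That sum includes the TRα2 transcript Thra-201, whose product does not bind T3. The TRα1 transcript Thra-202 averaged 36.2 TPM over the adult regions. Thrb averaged 19.7 TPM in the hypothalamus and 19.8 TPM in the other adult regions. Thra made up 90.30% (ACA) to 98.35% (CUL4-5) of the summed Thra and Thrb TPM in adult regional means. The hypothalamic nuclei averaged 95.75% ± 1.75 (SD, n = 5) against 96.05% ± 2.48 (SD, n = 13) in the other adult regions, which share mice, a difference of -0.30 percentage points (two-sided exact permutation test over regional means, p = 0.78, adjusted over 6 such tests 0.828).

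Within Thra, the TRα2 transcript Thra-201 took 71.16% of the adult level, Thra-203 17.85% and the TRα1 transcript Thra-202 8.46%. The share of Thra-201 was 72.25% ± 3.67 (SD, n = 5) in hypothalamic nuclei and 71.47% ± 5.80 (SD, n = 13) in other adult regions (exact permutation p = 0.782, adjusted 0.828). Single 33-cycle reads were spread over transcripts by estimation, and the share varied widely between libraries of a region, from 63.3% to 78.9% in ARH. The end of Thra lies antisense to Nr1d1, and 263 of the 2452 exon bases of Thra-201, or 10.7%, overlap its exons. So do 130 of the 1240 exon bases of Thra-203, or 10.5%, whereas none of those of Thra-202 do. Whether the counting used the strand is not given in the sources used here. For Thrb, the transcript Thrb-202 led with 40.74% of the adult level.

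**Figure D2:**
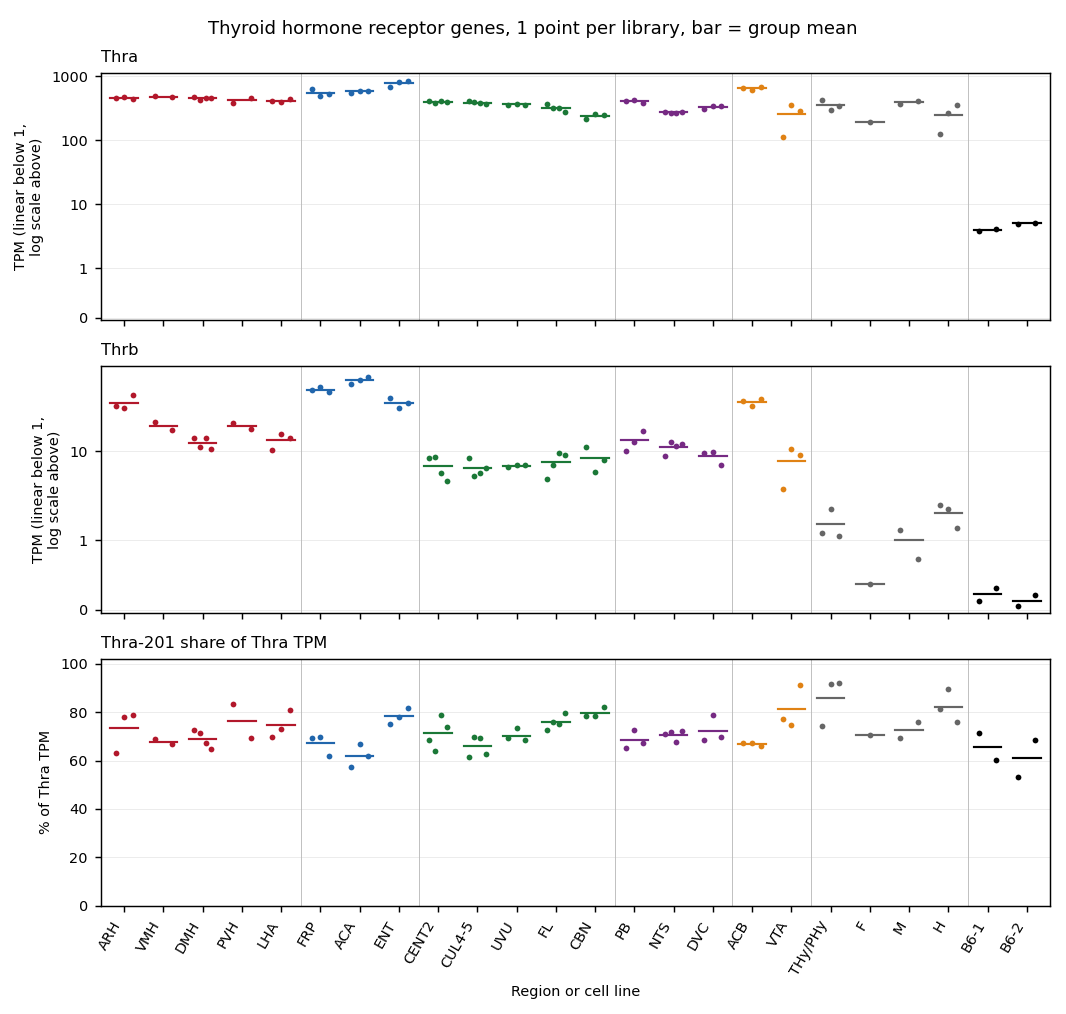
Gene TPM of Thra (top) and Thrb (middle) in each library by group, on axes linear below 1 TPM and logarithmic above, and the share of Thra-201 in percent of Thra TPM (bottom, linear axis); points are libraries and bars group means. Thra varies over adult regional means by a ratio of 3.28, Thrb is highest in ACA (57.1 to 66.8 TPM), and mESC hold Thra at 3.78 to 5.09 TPM.

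Of 8 partners of the thyroid hormone receptors (retinoid X receptors, corepressors, coactivators and Nr1d1), Rxrg was the one that regional comparisons of adult tissue called. It was higher in ACB (93.6 against 9.51 TPM; log2 fold change 4.13, SE 0.13, adjusted p = 4.62e-32), in the hypothalamus (18.7 against 12.4 TPM; 1.79, adjusted p = 3.08e-21) and in ARH among the nuclei (34.1 against 14.9 TPM; 1.23, adjusted p = 2.95e-06). It was lower in the cerebellum (1.38 against 19.1 TPM; -3.47, adjusted p = 1.37e-29) and in LHA among the nuclei (-1.06), and on the log scale higher in the cortex (1.34, with 13.3 against 14.4 TPM). Rxrg encodes a retinoid X receptor, with which thyroid hormone receptors form pairs on DNA.

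Dio2 was lower in the hypothalamus than in the rest of the adult brain. FRP held 21.3, 24.1 and 19.4 TPM and ACA 22.4, 16.98 and 24.8 TPM. The cerebellar regions, NTS, ENT and ACB all had means between 12.2 and 14.49 TPM. VMH held 1.77 and 1.32 TPM, PVH 3.21 and 2.41 TPM and DMH 2.36 to 4.71 TPM, so that these 8 libraries lay below every other adult library; LHA held 5.33 to 5.97 TPM and PB 4.97 to 6.08 TPM. ARH lay above the other hypothalamic nuclei, with 7.01, 11.7 and 7.71 TPM.

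The hypothalamic mean was 4.45 TPM against 13.5 TPM elsewhere (log2 fold change -1.90, SE 0.11, adjusted p = 2.57e-20), and this held with regions as units (adjusted p = 0.00328). The cortex was higher (18.8 against 9.41 TPM; 1.32, SE 0.10, adjusted p = 1.09e-16), though not with regions as units (adjusted p = 0.135). ARH exceeded the other nuclei (8.80 TPM ± 2.52, SD, n = 3, against 3.36 TPM; 1.46, SE 0.20, adjusted p = 5.98e-08). VMH was below them (1.54 TPM ± 0.319, SD, n = 2; -1.64, SE 0.30, adjusted p = 0.000274), a call that was lost without VMH replicate 2 (-1.43, adjusted p = 0.0898). The cerebellar difference of 0.73 (SE 0.09, adjusted p = 1.46e-10) stayed under the fold limit.

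Astrocyte markers did not run in parallel with Dio2. Their 5 genes summed to 555 to 767 TPM in hypothalamic libraries, against 318 to 516 TPM in cortical ones. edgeR called none of the 5 between the hypothalamus and the other adult regions (5.88% of all genes higher, 2.92% lower). In the cortex 1 was lower (Aqp4, -1.46), where 7.97% of all genes were. In the cerebellum 2 were higher (Aqp4, 1.62, and Gfap, 1.03), where 7.70% were. Over the 18 adult regional means, Pearson's r of Dio2 with the markers on the log scale lay between -0.50 (Gja1) and 0.10 (Aqp4), as a description over regions that share batches.

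Dio3, whose product inactivates T4 and T3, was low in most adult regions. It was highest in ENT (9.48 TPM ± 1.39, SD, n = 3) and ACB (5.54 TPM ± 3.30, SD, n = 3), reached 1.40 TPM ± 0.579 (SD, n = 3) in ARH and was at 0 in all 3 VTA libraries. Dio2 still made up most of the summed deiodinase TPM in adult regions, from 58.26% in ENT and 70.35% in ACB to 100% in VTA. The hypothalamic nuclei averaged 91.64% ± 4.49 (SD, n = 5) and the other regions 92.99% ± 13.1 (SD, n = 13; exact permutation p = 0.828, adjusted 0.828). Dio1 did not pass the count filter and its group means were at most 0.389 TPM.

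Dio3 was also higher in ARH than in the other hypothalamic nuclei, at 1.40 against 0.288 TPM (log2 fold change 2.79, SE 0.49, adjusted p = 1.58e-05). In the cortex Dio3 (4.35) and Slc7a8 (1.63), an amino acid transporter gene that also carries thyroid hormone, were higher on the log2 scale than in the other adult regions, and in ACB Dio3 was (4.81). ARH punches were called higher for Dio2, Dio3, Thrb and Rxrg.

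**Figure D3:**
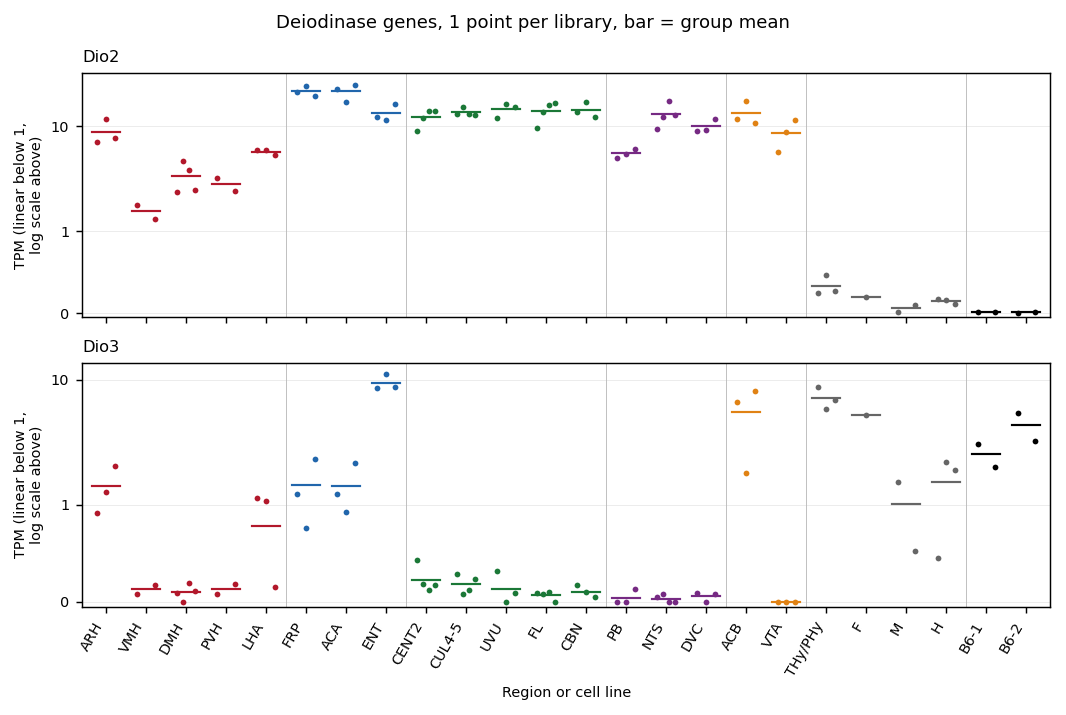
Gene TPM of Dio2 (top) and Dio3 (bottom) in each library by group, on axes linear below 1 TPM and logarithmic above; points are libraries and bars group means. Dio2 lies at 1.32 to 4.71 TPM in VMH, DMH and PVH and at 16.98 to 24.8 TPM in FRP and ACA, and each embryonic library holds more Dio3 (0.4515 to 8.75 TPM over the 9) than Dio2 (0.0179 to 0.462 TPM).

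Crym was at 1 TPM or more in 11 of the 18 adult regions and close to 0 in the others, with regional means from 0.223 TPM in CUL4-5 to 458 TPM in ACB. ACB held 477, 466 and 430.4 TPM. The cortical libraries followed at 117 to 262 TPM, the ENT libraries spreading most (183, 262 and 117 TPM). ARH held 29.2, 26.7 and 27.2 TPM, and the 11 other hypothalamic libraries held 0.957 to 10.9 TPM. Hindbrain nuclei, VTA and cerebellum together held 0.0 to 2.22 TPM.

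ACB exceeded the other adult regions (458 TPM ± 24.4, SD, n = 3, against 30.7 TPM; log2 fold change 7.44, SE 0.16, adjusted p = 5.43e-39). The cortex did too (159 against 33.6 TPM; 6.69, SE 0.15, adjusted p = 2.6e-39), also over regional means (adjusted p = 0.00626). The cerebellum was lower (0.351 against 75.3 TPM; -4.73, SE 0.29, adjusted p = 2.38e-20), as were VTA (0.45 TPM; -2.73, adjusted p = 6.65e-05) and the hindbrain nuclei (1.27 TPM; -1.90, adjusted p = 4.89e-07). The VTA and hindbrain calls were lost without UVU replicate 1 (adjusted p = 1 for both), because UVU then had no Crym count and the contrast could not be tested. ARH exceeded the other nuclei (27.7 TPM ± 1.32, SD, n = 3, against 2.96 TPM; 3.36, SE 0.29, adjusted p = 3.44e-13), and DMH was lower (1.70 TPM ± 0.458, SD, n = 4; -1.61, SE 0.41, adjusted p = 0.0271). The DMH call was lost with the replicate numbers as a block (adjusted p = 0.0616) and without any of 5 of the 14 hypothalamic libraries (VMH replicate 1, DMH replicates 2, 3 and 4, and PVH replicate 2), with adjusted p of 0.0934 to 0.133.

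Rax was found in 1 adult region at 1 TPM or more. The 3 ARH libraries held 11.1, 22.6 and 16.5 TPM and the 3 THy/PHy libraries 30.3, 22.5 and 8.62 TPM. VMH held 0.515 and 0.767 TPM. All other libraries held at most 0.4355 TPM, and CBN and PB had no Rax count. The summed means of the hypothalamic nuclei took 97.33% of the adult total, and ARH alone 92.5%.

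ARH was higher than the other nuclei (16.8 TPM ± 5.78, SD, n = 3, against 0.22 TPM; log2 fold change 7.00, SE 0.46, adjusted p = 2.52e-16). The counts behind the comparison are small, with 785 in the ARH libraries, 17 in VMH and 1 to 7 in each of the others, and the fitted fold depends on the prior count; the ratio of the mean TPM was 76.2. The hypothalamus as a whole was called higher (3.53 against 0.0372 TPM; 3.10, SE 0.71, adjusted p = 0.000218), but this rests on ARH and was lost with regions as units (adjusted p = 0.168) and without PVH replicate 2, which held the single PVH count. PVH was called lower than the other nuclei (-3.54, SE 1.11, adjusted p = 0.0453) on that 1 count, and DESeq2 gave an adjusted p of 0.144.

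Other tanycyte markers rose in ARH with Rax. Of 12, 7 were higher in ARH than in the other nuclei (4.50% of all genes) and none was lower (2.31%). The median log2 fold change of the 12 was 1.24, against 0.00 over all genes. Col23a1 stood at 59.9 against 2.15 TPM (4.88, SE 0.23, adjusted p = 1.62e-22), Gpr50 at 62.1 against 9.61 TPM (3.82), Scn7a at 16.6 against 1.92 TPM (3.23) and Frzb at 27.9 against 2.81 TPM (3.21). Gpr50, which encodes an orphan receptor of the melatonin receptor family, was also higher in VMH (26.3 against 18.6 TPM; 2.31, SE 0.40, adjusted p = 0.00016). Over the 18 adult regional means the r of Rax with the 12 markers on the log scale ran from -0.18 (Ppp1r1b) to 0.77 (Scn7a), with 4 above 0.7 (Scn7a, Gpr50, Col23a1 and Nes) and the other 8 at 0.403 or lower, a description that ARH dominates.

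ARH punches also held pituitary tissue markers. Of 5 thyrotroph and pars tuberalis genes, 3 were higher in ARH, with Cga at 78.9 against 0.0626 TPM (log2 fold change 10.21, SE 0.75, adjusted p = 3.28e-11), Pitx1 at 7.56 against 0.0343 TPM and Tshr at 5.69 against 0.81 TPM. Tshb was not called, with 6.83 against 2.16 TPM but a log2 fold change of -0.21. For this and the lists below, 4.50% of all genes were called higher in ARH. The 5 genes summed to 82.6 to 119 TPM in ARH against 2.02 to 4.58 TPM in the other nuclei, and Pou1f1, a defining factor of anterior-lobe thyrotrophs, was at 0 in 2 of the 3 ARH libraries and at 0.146 TPM in the other. Choroid plexus markers summed to 34.4 to 44.7 TPM in ARH against 4.94 to 35.7 TPM, with 3 of 5 called higher, and ependymal markers to 165 to 228 TPM against 35.4 to 337 TPM, with 1 of 5 called higher. The part of these tissues in the ARH levels of Rax, Dio2, Thrb and Crym was not tested.

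**Figure D4:**
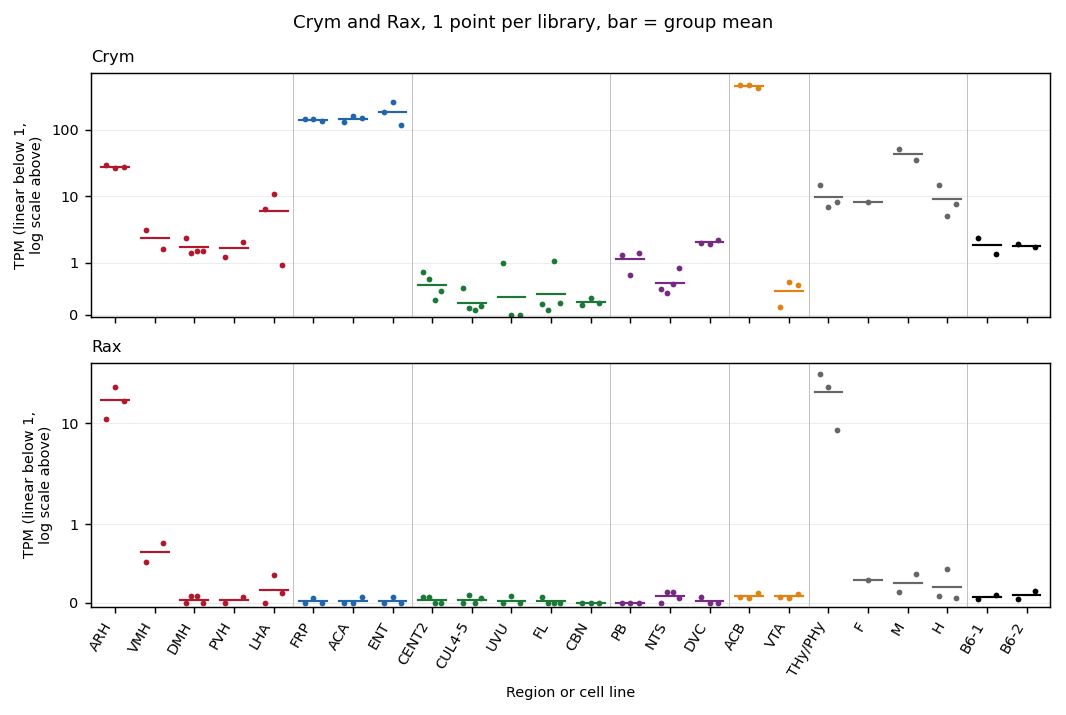
Gene TPM of Crym (top) and Rax (bottom) in each library by group, on axes linear below 1 TPM and logarithmic above; points are libraries and bars group means. Crym is highest in ACB (430.4 to 477 TPM), then in cortex (117 to 262 TPM), and Rax is above 1 TPM only in the ARH (11.1 to 22.6 TPM) and THy/PHy (8.62 to 30.3 TPM) libraries.

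Read as counts of members, the regions differed in how many of the 7 they called and in which direction. In the hypothalamus 3 were higher (Trh, Trhr, Rax), where 5.88% of all genes tested were called higher, and 1 was lower (Dio2), where 2.92% were. In the cortex 3 were higher (Thrb, Dio2, Crym; 8.16% of all genes) and none was lower (7.97%). In the cerebellum none was higher (7.70%) and 4 were lower (Trh, Trhr, Thrb, Crym; 8.24%). These members were chosen by name for this system, and the background percentages say only how common such calls were.

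In ACB 4 members were higher (Trh, Trhr, Thrb, Crym; 7.26% of all genes) and none was lower (5.52%). In VTA 1 was higher (Trhr; 6.90%) and 1 lower (Crym; 3.64%), and in the hindbrain nuclei none was higher (5.18%) and 1 was lower (Crym; 2.66%). With the 18 regional means as units, limma called 2 members in the hypothalamus (Trh, Dio2), 2 in the cortex (Thrb, Crym), the same 4 in the cerebellum and none in ACB, VTA or the hindbrain nuclei.

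Between the hypothalamic nuclei the calls gathered in ARH. There 4 members were higher (Thrb, Dio2, Crym, Rax), where 4.50% of all genes were, and 1 was lower (Trh), where 2.31% were. VMH had 1 higher (Trh; 0.787%) and 1 lower (Dio2; 0.701%), and PVH had 1 higher (Trh; 1.45%) and 1 lower (Rax; 0.606%). DMH had none higher (0.451%) and 1 lower (Crym; 0.155%), and LHA none higher (2.37%) and 1 lower (Trh; 2.65%). Trhr and Thra were called in none of these 5 comparisons by edgeR, DESeq2 or limma, and none of their 10 unadjusted edgeR p-values was under 0.05.

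**Figure D5:**
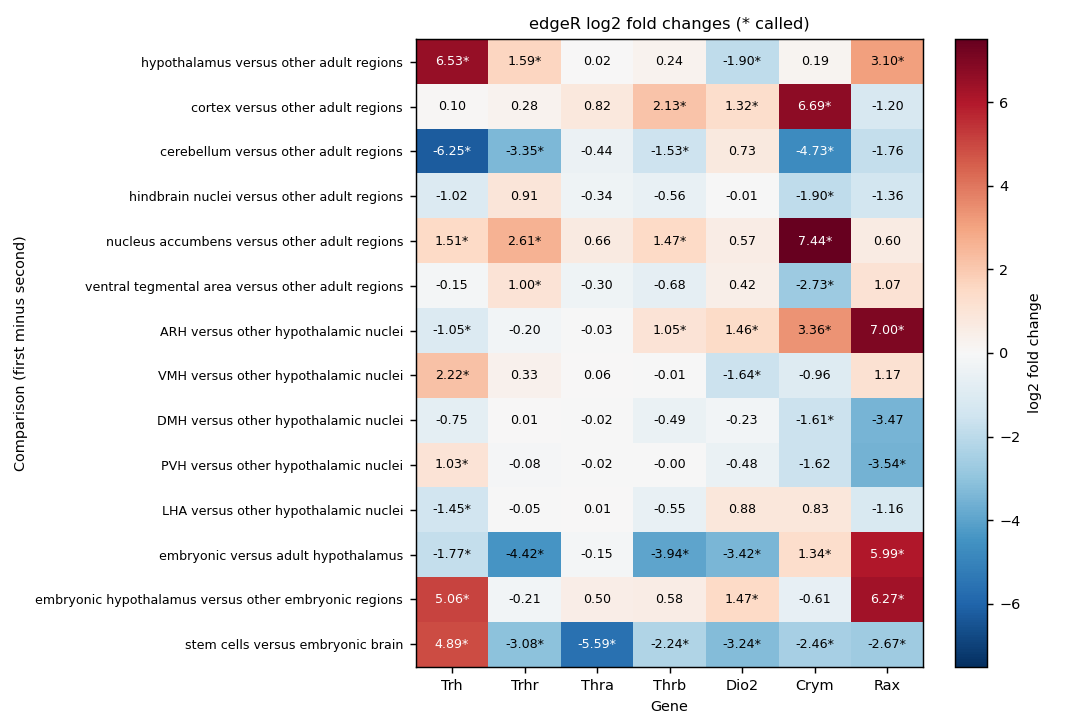
Log2 fold changes of the 7 genes (columns) in the 14 comparisons (lines), first group minus second, from edgeR; an asterisk marks an adjusted p under 0.05 with an absolute log2 fold change above 1, and colour gives the value from blue (lower) to red (higher). Thra is called in 1 comparison, that of mESC with embryonic brain (-5.59), and Crym has the largest regional value (7.44 in ACB).

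The embryonic hypothalamus was lower in Dio2, Thrb and Trhr and higher in Dio3 and Rax than the adult nuclei. Embryonic and adult libraries were made in separate batches by the study's sample description, so that stage and batch cannot be told apart in any comparison of the 2. Between the embryonic and the adult hypothalamus, 2 members were higher (Crym and Rax; 18.9% of all genes were called higher) and 4 were lower (Trh, Trhr, Thrb and Dio2; 19.4%), so that called genes were common in both directions.

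Trhr stood at 0.287 TPM ± 0.125 (SD, n = 3) in THy/PHy against a mean of 6.065 TPM in the adult nuclei (log2 fold change -4.42, SE 0.47, adjusted p = 4.28e-12). Thrb stood at 1.51 TPM ± 0.606 (SD, n = 3) against 19.7 TPM (-3.94, SE 0.20, adjusted p = 2.11e-23), and Dio2 at 0.326 TPM ± 0.118 (SD, n = 3) against 4.45 TPM (-3.42, SE 0.31, adjusted p = 4.02e-14). No embryonic library reached an adult one for these 3 genes within the hypothalamus. Trh was lower but present, at 16.8, 20.96 and 22.3 TPM (-1.77, SE 0.34, adjusted p = 1.04e-05), a range that overlaps DMH replicate 2 at 18.3 TPM.

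Thra did not pass the test between embryonic and adult hypothalamus (351 against 442 TPM; -0.15, SE 0.10, adjusted p = 0.192). The share of Thra in the summed receptor TPM was higher in the embryo, at 99.51% ± 0.38 (SD, n = 4 regions) against 95.97% ± 2.26 (SD, n = 18 regions), and the exact permutation test gave the smallest p it allows (p = 0.000273, adjusted 0.00082). All Thra transcripts count in this receptor share, Thra-201 among them. The share of Thra-201 was 77.77% against 71.69% (exact permutation p = 0.0746, adjusted 0.149). Dio3 was higher where Dio2 was lower. It stood at 7.15 TPM ± 1.48 (SD, n = 3) in THy/PHy against 0.511 TPM in adult nuclei (4.75, SE 0.40, adjusted p = 3.06e-15), and Dio2 made up 7.51% ± 4.43 (SD, n = 4 regions) of deiodinase TPM in embryonic regions against 92.61% ± 11.3 (SD, n = 18 regions; exact permutation p = 0.000273, adjusted 0.00082). All 5 astrocyte markers were lower in THy/PHy than in adult nuclei, Aqp4 at -5.98 and Gfap at -10.56 on the log2 scale. Of all genes, 19.4% were called lower in this comparison. The 5 markers summed to 125 to 298 TPM in embryonic libraries, and their part in the Dio2 level was not tested.

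Rax was higher in THy/PHy than in the mean of the adult nuclei (log2 fold change 5.99, SE 0.40, adjusted p = 2.62e-18), although its 20.5 TPM ± 10.999 (SD, n = 3) and the 16.8 TPM ± 5.78 (SD, n = 3) of ARH did not differ beyond their spread. Crym was called higher on the log scale (1.34, SE 0.31, adjusted p = 0.000127), with 9.94 against 7.91 TPM. Of 12 tanycyte markers, 7 were higher (18.9% of all genes) and 4 lower (19.4%) in the embryonic hypothalamus. Nes (4.51), Vim (4.15), Vcan (3.38) and Lhx2 (3.16) were among those higher, and these genes are also known from neural progenitors. Of the 7 TRH processing and inactivation genes, 6 were lower, where 19.4% of all genes were. Among them were the prohormone convertases Pcsk1 (2.58 against 33.3 TPM; -3.49) and Pcsk2 (15.2 against 122 TPM; -2.90).

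Of 8 genes known to respond to T3 in brain, 7 were lower in the embryonic than in the adult hypothalamus and 1 was higher. Of all genes tested, 19.4% were called lower in this comparison and 18.9% higher. Rasd2 stood at 0.948 against 55.4 TPM (log2 fold change -5.68, SE 0.20, adjusted p = 1.7e-30), Thrsp at 0.5675 against 20.3 TPM (-4.94), Nrgn at 5.63 against 148 TPM (-4.78) and Klf9 at 2.42 against 53.2 TPM (-4.37). Bcl11b, a transcription factor of developing neurons, was the exception (20.01 against 3.95 TPM; 2.65, SE 0.20, adjusted p = 9.68e-17). The median of the 8 was -3.98, against 0.03 over all genes. Among neuron markers, Snap25 (-3.59) and Syt1 (-1.66) were also called lower, while Rbfox3 (-0.94) and Stmn2 (0.81) were not called. The part of cell composition in these differences was not tested. Between adult hypothalamus and other adult regions 1 of the 8 was called, Sema7a (-1.86, SE 0.09, adjusted p = 1.06e-23). There 2.92% of all genes were called lower.

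Within the embryo, 3 members were higher in the hypothalamus than in the other regions (2.26% of all genes were called higher) and none was lower (1.01%). Trh stood at 20.02 TPM ± 2.84 (SD, n = 3) against a mean of 0.637 TPM in F, M and H (log2 fold change 5.06, SE 0.47, adjusted p = 2.85e-11), and Rax at 20.5 against 0.249 TPM (6.27, SE 0.60, adjusted p = 8.64e-11). Dio2 passed at low levels (0.326 against 0.134 TPM; 1.47, SE 0.48, adjusted p = 0.0369), and without THy/PHy replicate 2 it did not (1.12, adjusted p = 0.269). Crym was highest in the embryonic midbrain, at 51.9 and 34.8 TPM against 5.07 to 14.8 TPM in the other embryonic libraries. THy/PHy punches held 4 of the 5 pituitary markers at higher levels than the rest of the embryo, with sums of 15.4 to 40.95 TPM, Pou1f1 among them (2.81 TPM).

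In mESC, Trh stood at 37.3 and 31.7 TPM in B6-1 and at 30.7 and 29.96 TPM in B6-2, within the range of the adult ARH and LHA libraries (24.9 to 52.2 TPM). It was the 1 member higher in mESC than in embryonic brain (27.4% of all genes were called higher), with a log2 fold change of 4.89 (SE 0.38, adjusted p = 1.55e-16), and the other 6 were lower (28.6%). Thra fell by 5.59 on the log2 scale to 3.78 to 5.09 TPM (SE 0.14, adjusted p = 1.25e-37), and Trhr, Thrb, Dio2 and Rax stood at or below 0.315 TPM in all 4 libraries. Pou5f1, which defines pluripotent cells, was at 1059 and 996 TPM in the 2 lines. Of the 7 TRH processing and inactivation genes, 1 was higher in mESC (Qpct, 7.07 against 4.28 TPM; 1.15, SE 0.25, adjusted p = 3.64e-05) and 4 were lower, among them Cpe, an exopeptidase that trims the cut precursor (3.84 against 426 TPM; -6.56, SE 0.10, adjusted p = 1.78e-45), and Trhde (-6.53). Pam stood at 351 against 137 TPM with a fold change of -0.09 on summed counts (adjusted p = 0.577), and Dio3 at 3.46 against 3.74 TPM (0.62, adjusted p = 0.141).

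Each member's regional profile was set beside those of 13922 genes with a mean of at least 5 TPM in 1 adult region, with Pearson's r computed on log2(TPM + 1) across the 18 regional means. Close to Trh were Pgap1 (r = 0.930) and Tm4sf5 (0.920), and the nearest to Trhr were Nkain3 (0.930), Necab2 (0.926) and Dcc (0.926). For Thra they were Rnft2 (0.978), Acvr2a (0.966) and Rasgef1a (0.954), and for Thrb Icam5 (0.957), Plekhg5 (0.957) and Gda (0.956). Crym was nearest to Plk2 (0.970), Kcnj4 (0.967) and Fam105a (0.959). Rax was nearest to Fndc3c1 (0.986), Pomc (0.986) and Nr5a2 (0.982), all highest in ARH. Dio2 had the loosest matches, Gadd45b (0.862), Mfap3l (0.849) and Iqsec2 (0.841). The 18 points share batches and the genes were picked as the highest of many, so the values describe likeness in these regions alone.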

How the data were processed

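Stranded mRNA libraries of pooled brain punches and of mESC were sequenced as single reads of 33 cycles. The authors aligned these to GRCm38 cDNA with Kallisto (base calls: CASAVA 1.8.2), summed transcripts to genes, and deposited TPM values per gene and per transcript, scaled within each library, and estimated counts per transcript, not normalized between libraries. Whether the strand was used in counting is not given in the sources used here. The study lists batches per region without naming the library, so no batch term was fitted, and its adult, embryonic and mESC batches do not overlap.

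For this work the deposited estimated counts of each gene's transcripts were added up and then rounded. A gene was found for 107899 of the 109282 transcripts (98.7%), and the rest held 0.43% to 0.79% of counts. The 7 genes and all gene lists were chosen with earlier results of these data known. Levels are the deposited TPM. edgeR 4.0.16 (R 4.3.3; TMM, low-count filter, quasi-likelihood test) was fitted to all 70 libraries with 1 group per region or line, without covariates, and 14 contrasts of group means were taken over 19960 genes. Where a group had 0 counts, a contrast of mean logs could go untested in edgeR whatever the difference. Calls needed an absolute log2 fold change above 1 together with a Benjamini-Hochberg adjusted p under 0.05. 6 transcript or gene shares in percent, computed from deposited TPM, were compared by two-sided exact permutation tests over regional means, which treat regions as independent although they share mice.

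Alternatives were DESeq2 1.42.0, RLE factors, no filter, limma 3.58.1 on log2(TPM + 0.5) and log2(TPM + 0.1), the replicate number as a block, regions as units, no mESC, and each library left out in turn from the contrasts its group enters (with the dispersion trend and genes tested of the full fit). No 2 libraries of a group agreed within sampling noise (chi-square per gene 2.59 or more over 74 pairs). Because libraries are pools, p-values measure the spread between pools. Counting scripts were tested on simulated data. Named list genes were those called with the largest changes, or those whose level stands beside a member's. A few results on single genes are not reported here.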

Additional observations from a re-analysis of the deposited data

Results flagged for a closer look

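Dixon's test was run 50 times, for each of the 7 genes and the shares in each group of 4 libraries, so that the same libraries recur. In 4 of the tests 1 library stood far from the other 3, which chance alone gives in about 1 of 20 tests. Trhr stood at 0.551 TPM in CUL4-5 replicate 1 against 0.0925 to 0.146 TPM in the others. Crym stood at 2.38 TPM in DMH replicate 1 against 1.39 to 1.52 TPM, and at 1.07 TPM in FL replicate 3 against 0.0855 to 0.229 TPM. Rax stood at 0.0809 TPM in FL replicate 1, which is 1 count, and at 0 in the other FL libraries. With 0 in all the others any count is flagged, so the rate of about 1 in 20 does not apply there.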

How the results depend on the processing

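Counts of called members stayed within 1.5 times the reported count in 87 of 103 repeats with another setting, and 297 of 326 fold changes of called members kept their call, 29 lost it and 0 changed sign. With regions as units the hypothalamus had 2 calls and the hindbrain nuclei, ACB and VTA 0 each. The hindbrain nuclei had 2 calls with DESeq2 and with limma at either pseudocount, the contrast that an empty UVU group leaves untested for Trh in edgeR. VTA had 1 call without mESC. DMH had 2 with limma on log2(TPM + 0.5) and 0 with the replicate block. PVH had 1 with DESeq2, with limma on log2(TPM + 0.1) and without mESC, and 0 without the filter. LHA had 2 with limma at either pseudocount. RLE factors moved no count. The other causes were not tested. On the TPM scale the median of all genes moved to -0.40 in VTA and -0.23 in mESC (limma, pseudocount 0.5).

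With 1 library left out, counts ran from 3 to 4 in the hypothalamus, 0 to 1 in the hindbrain nuclei, 0 to 2 in VTA, 4 to 5 in ARH, 1 to 2 in VMH, 0 to 1 in DMH, 0 to 2 in PVH, 1 to 2 in LHA and 2 to 4 in the embryonic hypothalamus against other embryonic regions. They stayed at 3 in cortex, 4 in cerebellum and in ACB, 6 between embryonic and adult hypothalamus and 7 in mESC. PVH Trh was lost without any of 9 libraries and PVH Rax without any of 8. LHA Crym was gained without LHA replicate 3 (1.35, adjusted p = 0.00203), and embryonic Crym without F replicate 1 (-1.04, adjusted p = 0.0369). The difference in the Thra-201 share between hypothalamus and other adult regions, 0.78 points, ran from -0.64 (without PVH replicate 1) to 2.19, and that in the Dio2 share, -1.34 points, was 0.24 with estimated counts.

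Replicate numbers did not pair the libraries. Of 669 same-numbered pairs, 77 had deviations from their group means correlated above 0.1, with a median of 0.011 against -0.004 for other pairs. With the replicate number as a block, 13 of 14 counts stayed within 1.5 times the reported one, DMH Crym was lost (adjusted p = 0.0616) and PVH Crym was gained (adjusted p = 0.0336). Levels below about 1 TPM rest on few counts, which limits Rax outside ARH and THy/PHy and Trh in the cerebellum.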

Other observations

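Klf9, a transcription factor gene known to respond to T3, was higher in mESC than in embryonic brain, at 64.9 against 1.84 TPM (edgeR log2 fold change 5.61, SE 0.17, adjusted p = 1.01e-33), in the same libraries in which Thra stood at 4.45 against 296 TPM. Of the 8 T3-responsive genes, 3 were higher and 3 lower in mESC, with a median of -0.59 against 0.02 over all genes. Calls were common in this comparison, with 27.4% of all genes higher and 28.6% lower.

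In ACB, 3 of the 8 T3-responsive genes were higher (7.26% of all genes) and 3 lower (5.52%) than in the other adult regions. Bcl11b stood at 127 against 8.34 TPM (4.89, SE 0.14, adjusted p = 1.54e-34) and Rasd2 at 269 against 33.9 TPM (3.15, SE 0.08, adjusted p = 2.69e-36), and both are also known as genes of striatal neurons. Thrsp was lower, at 8.31 against 32.9 TPM (-1.69, SE 0.17, adjusted p = 4.06e-12). Slc7a8, an amino acid transporter gene of the transport list, was higher in PVH than in the other hypothalamic nuclei (43.5 against 18.5 TPM; 1.32, SE 0.12, adjusted p = 7.21e-12).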
